A study of Mus musculus with 72 samples.

Results

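The genes described here encode the nuclear subunits of mitochondrial complex I, the proteins that assemble it, and a pair of relatives that share the name. They were chosen by name alone: every protein-coding row of the count table whose mouse gene symbol starts with Nduf was taken, which gave 46 of 24237 genes. The row of Ndufs5-ps, a transcribed pseudogene, was left out. Poly-A RNA was sequenced from right atrium, left atrium and ventricles of adult C57BL/6J mice of both sexes, in 24 groups of 3 libraries (72 libraries, 3 mice for each sex and condition). Naive mice were Ahr+/+ offspring of dams given vehicle. Ahr-/- mice lacked the aryl hydrocarbon receptor (AHR), a ligand-activated transcription factor, by germline deletion, and were born to Ahr-/- parents. The study's methods state that Ahr-/- dams received no treatment. Comparisons of Ahr-/- with naive mice therefore also differ in vehicle gavage of the dam. Low-dose and high-dose mice were Ahr+/+ and had been exposed in utero to TCDD, a dioxin that binds this receptor, given to the dam by gavage. The labels mark the doses as 100 and 1000 with no unit, and the study's methods give 0.1 and 1 µg/kg. The labels state an age of 9 months and the methods about 10 months, and the labels name TCDD beside every sample, controls and Ahr-/- included. Although the labels call the cells cardiomyocytes, each library was made from dissected chamber tissue, and the 3 chambers of a heart were sequenced separately with no label that ties them together.

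Complex I, or NADH:ubiquinone oxidoreductase, is the entry point for electrons from NADH into the respiratory chain of the inner mitochondrial membrane. Its matrix arm takes electrons from NADH through a flavin and a row of iron-sulphur clusters to ubiquinone, and its membrane arm pumps protons. Core subunits carry the chemistry, accessory subunits surround them, and assembly factors hold intermediates together without staying in the finished enzyme. Heart muscle is rich in mitochondria and makes most of its ATP this way. Of the 46 genes, 7 encode core subunits of the matrix arm, 9 accessory subunits of the matrix arm and 19 accessory subunits of the membrane arm, while Ndufab1, the mitochondrial acyl carrier protein, sits in both arms. The 8 genes Ndufaf1 to Ndufaf8 encode assembly factors. Ndufa4 and its paralogue Ndufa4l2 complete the list: Ndufa4 was named as a complex I subunit and is now placed in complex IV. The membrane-arm core subunits are encoded by mitochondrial DNA and were not analysed here.

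The RefSeq table of regions around gene starts (250 bases before to 50 after, GRCm38.p6) held an entry for 40 of the 46 genes. These regions were searched on both strands for 4 short motifs of transcription factors known to act on nuclear genes of the respiratory chain. The YY1 motif AANATGGCG was present in 8 of 40 genes (20%), against 2.76% of 27025 genes with an entry. The NRF1 motif GCGCATGCG was present in 4 (10%, against 1.95%), the ETS motif CCGGAAG in 6 (15%, against 9.93%) and the ERR motif NAAGGTCA in 3 (7.5%, against 5.36%). A match is a description of letters and not of binding. The 8 YY1 matches are shown because YY1 was the most frequent of the 4 motifs searched. Each sequence is given 5′ to 3′ on the gene's own strand with the matched letters in capitals.
Ndufa7: gagcggaaggAATATGGCGtccgctactc
Ndufa9: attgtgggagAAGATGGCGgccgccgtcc
Ndufaf8: ggcagggcccAAGATGGCGgcgccctcga
Ndufb11: tcaccaacacAAAATGGCGacgagaagag
Ndufc1: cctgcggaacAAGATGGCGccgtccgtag
Ndufs4: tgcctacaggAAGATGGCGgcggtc
Ndufs6: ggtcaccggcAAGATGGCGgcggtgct
Ndufs7: ggccgaggccAAGATGGCGgcgctggcgg

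The match began 211 bases before the start in Ndufb11 (chrX:20617812-20617840, minus strand). In Ndufa7 (chr17:33824617-33824645, plus strand) it began 18 bases before the downstream of its listed starts. It lay inside the gene as annotated from position 33824572. In the other 6 genes it lay within the transcript, beginning at base 11 in Ndufaf8, 23 in Ndufc1, 25 in Ndufs7, 30 in Ndufa9, 34 in Ndufs6 and 36 in Ndufs4. The motif itself holds an ATG. The NRF1 matches are shown because 3 of the 4 hold the motif on both strands, offset by 1 base.
Ndufa11: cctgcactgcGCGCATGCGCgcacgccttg
Ndufa8: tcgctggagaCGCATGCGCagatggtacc
Ndufaf4: ccagatgtctGCGCATGCGCctgtgcggaa
Ndufaf5: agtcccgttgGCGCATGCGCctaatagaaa

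Of the 8 genes with a YY1 match, Ndufs7 was called higher, Ndufc1 lower and 6 were not called in high-dose female ventricle, the comparison in which calls were made. Of the 4 with an NRF1 match, Ndufaf4 was called lower and 3 were not called.

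Every library held between 11873417 and 28789382 counts, and no Nduf gene was at 0 in any of them. Levels are given as CPM, a gene's count scaled to the library's total. Ahr itself ranged from 2.00 to 9.23 CPM in the 18 Ahr-/- libraries and from 4.68 to 30.8 CPM in the 54 others, so the ranges overlapped. Chamber and sex markers went against the label in 19 of 72 libraries: in 15 the atrial light chain Myl4 lay on the wrong side of 100 CPM, and in 8 the sex-linked transcripts did not match. All 8 carry library numbers from 49 to 72, which supply 1 library of every group. They were 50, 56, 62 and 68, labelled female right atrium, and 53, 59, 65 and 71, labelled male ventricle. Libraries 51, 57, 63 and 69, labelled male left atrium, had Myl4 at 2.21 to 4.57 CPM. The cause was not tested. The 19 libraries include 7 of the 24 ventricle libraries (1 naive female, 1 naive male, 1 Ahr-/- male, 1 high-dose male and all 3 low-dose males). Comparisons with naive mice that rest on them are given with and without them. The exception is low-dose male ventricle, where no library was left.

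**Figure D1:**
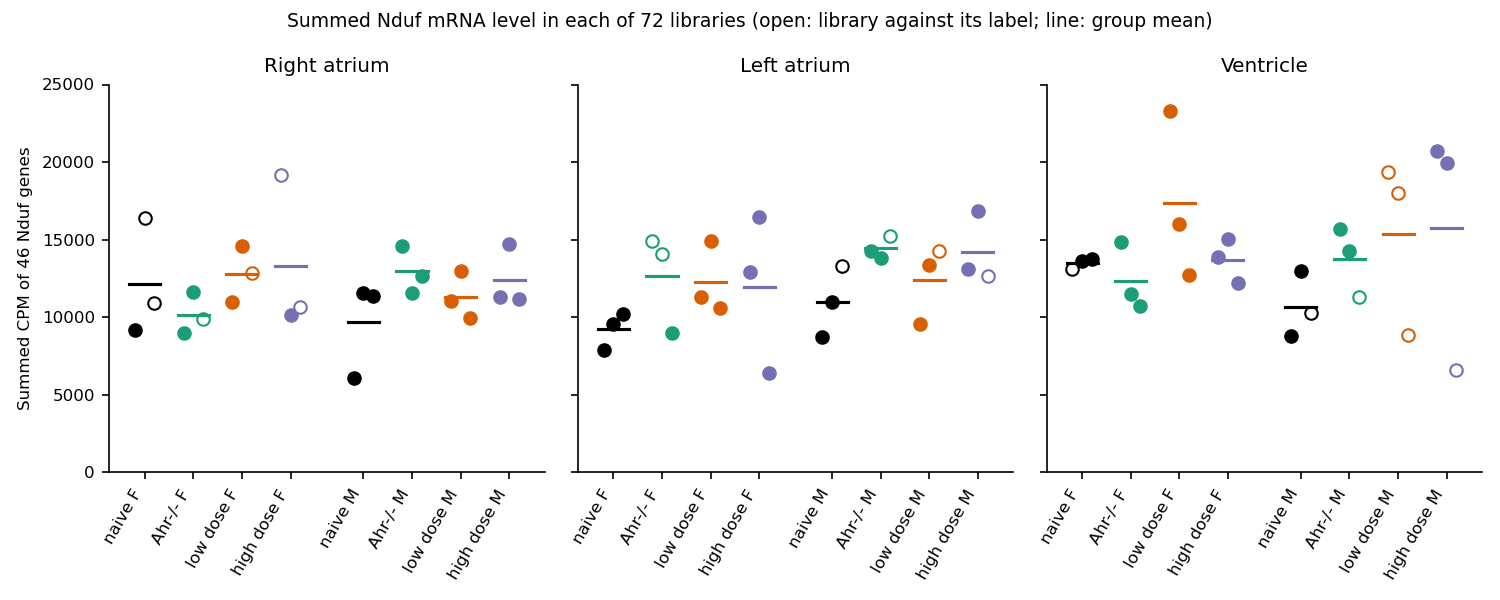
Summed CPM of the 46 Nduf genes (y axis) in each library, by chamber, sex (F, M) and group (x axis), with the group mean as a line and open symbols for libraries whose markers go against the label. The 3 naive female ventricles lie close together, from 13131 to 13750 CPM, while male ventricle groups range from 6577 to 20731 CPM.

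Summed over the 46 genes, the level varied from 6106 to 23284 CPM between libraries, with a median of 12694 CPM. Both ends of the range were single libraries that stood apart within their group: library 1, a naive male right atrium, was lowest, and library 47, a low-dose female ventricle, was highest. Per kilobase of transcript, Ndufa4 had the highest median level of the 46 (2744 CPM per kb), followed by Ndufb8 (855), Ndufa2 (734) and Ndufb5 (708), and the lowest were Ndufaf3 (7.89) and Ndufa4l2 (9.07). All 8 assembly factors lay at or under 34.6 CPM per kb, which was the level of Ndufaf1, while every core subunit was at 182 CPM per kb or above. The study's counts were taken over coding regions, but the length used here is that of the whole chosen transcript. Genes with long untranslated parts are set lower by this scale. Ndufaf4, for example, has a transcript of 3632 bases and a coding region of 519. The order of the genes and the gap between assembly factors and core subunits therefore depend on the length used, and levels per kilobase of coding region were not computed.

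The genes varied together. Over the 72 libraries, the 1035 pairs of genes had a median Spearman rho of 0.64, from -0.47 to 0.97, and 20 pairs were below 0. Ndufaf7, an arginine methyltransferase, followed the rest least (median rho 0.12 with the others), then Ndufa13 (0.29). The 5 genes outside the list whose level was most like the summed complex I level were Higd1a, an inner-membrane protein (rho 0.95), Acot13, an acyl-CoA thioesterase (0.93), the mitochondrial RNA-binding protein Mtres1 (0.93), Mdh2, the mitochondrial malate dehydrogenase (0.93) and Uqcr11, a complex III subunit (0.92), out of 14388 genes compared. The same sum had a rho of 0.85 with Myl2, the ventricular light chain, -0.54 with Myl4 and -0.43 with a list of 6 fibroblast genes. These values were 0.84, -0.49 and -0.39 over the 53 libraries whose markers match their labels. Over all 72 libraries, rho was 0.82 with the skeletal muscle list, which holds genes that heart also expresses, 0.67 with the blood list, 0.33 with the cardiomyocyte list, -0.46 with the adipocyte list, -0.19 with the T-cell list and 0.01 with the endothelial list. The points share libraries, chambers and hearts. In bulk tissue, fewer cells of a type and less RNA per cell cannot be told apart.

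The first comparison asked whether the ventricle differs from the atria in complex I expression. Every one of the 46 genes was higher in ventricle, by a median log2 difference of 0.37 (range 0.07 to 0.61), where the median over all 16688 genes tested was -0.03. Of the 46, 28 passed an adjusted p of 0.05 (edgeR's quasi-likelihood test over 24 groups, Benjamini-Hochberg adjusted) and 0 were called lower, against 15% of all genes called higher and 17.7% called lower. At an unadjusted p under 0.05 the count of lower genes was also 0, against 3832 of all 16688 genes. DESeq2 called 30 higher, against 2659 of all 16688 genes, and 0 lower. Summed CPM overlapped widely: the 48 atrial libraries ran from 6106 to 19164 CPM with a median of 11584, and the 24 ventricle libraries from 6577 to 23284 CPM with a median of 13697. The mice of the 3 chambers are the same, which the fit could not take into account.

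The 5 largest differences among the called genes were those of Ndufb2, Ndufa9, Ndufs3, Ndufs6 and Ndufb9. Ndufb2, an accessory subunit of the membrane arm, had a median of 204 CPM in right atrium, 207 in left atrium and 271 in ventricle (log2 difference 0.61, SE 0.22, adjusted p 0.025). Ndufa9, an accessory subunit near the quinone site, had medians of 344, 399.9 and 459 CPM in the same order (0.52, SE 0.12, adjusted p 0.0012). The core subunit Ndufs3 had medians of 296, 292 and 363 CPM (0.49, SE 0.13, adjusted p 0.0037). The core subunit Ndufs7 did not pass (0.34, SE 0.14, adjusted p 0.0503). Of the accessory subunits, 7 of 9 in the matrix arm and 11 of 19 in the membrane arm were called, and of the assembly factors 3 of 8: Ndufaf1 (0.42), Ndufaf4 (0.30) and Ndufaf6 (0.46). The smallest adjusted p was that of Ndufs1, the largest core subunit, with 0.39 (SE 0.08, adjusted p 0.00032).

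Without the 19 libraries that go against their labels the difference was larger. The median over the 46 genes became 0.66, and 44 were called higher, against 23.1% of all genes. Ndufa9 then differed by 0.89 (SE 0.11), Ndufs6 by 0.89 (SE 0.21), Ndufs3 by 0.79 (SE 0.14), Ndufb9 by 0.78 (SE 0.13) and Ndufb2 by 0.77 (SE 0.28). Ndufc1 (0.53, adjusted p 0.059) and Ndufaf8 (0.29, adjusted p 0.082) were the genes not called. In the naive libraries alone the median was 0.27 with 0 genes called, and 0 of all 15507 genes were called higher. Leaving out 1 of the 3 libraries of every group (the earliest, the middle or the latest by number) gave 0, 2 and 40 genes called. Over all genes, 62 of 16531, 217 of 16974 and 3757 of 16575 were called higher in these fits. Fibroblast markers were lower in ventricle than in atria for all 6 genes of the list (median -0.40, 3 called) and adipocyte markers for all 6 (median -2.38, 6 called), and their part in the result was not tested. Left and right atrium were also compared. Left atrium had the higher value for 45 of 46 genes, with a median of 0.11, yet 0 were called by edgeR or DESeq2 and 0 reached an unadjusted p of 0.05, where 0.00599% of all genes were called.

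The main question of the study was what in utero disruption of AHR signaling leaves behind in the adult heart, and each sex and chamber of Ahr-/-, low-dose and high-dose mice was therefore compared with naive mice of the same sex and chamber (18 comparisons, 3 libraries against 3). Those of the same sex and chamber share their naive libraries. In 17 of the 18, edgeR called 0 of the 46 genes. In the 18th, high-dose female ventricle, 19 genes were called, 13 higher and 6 lower.

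**Figure D2:**
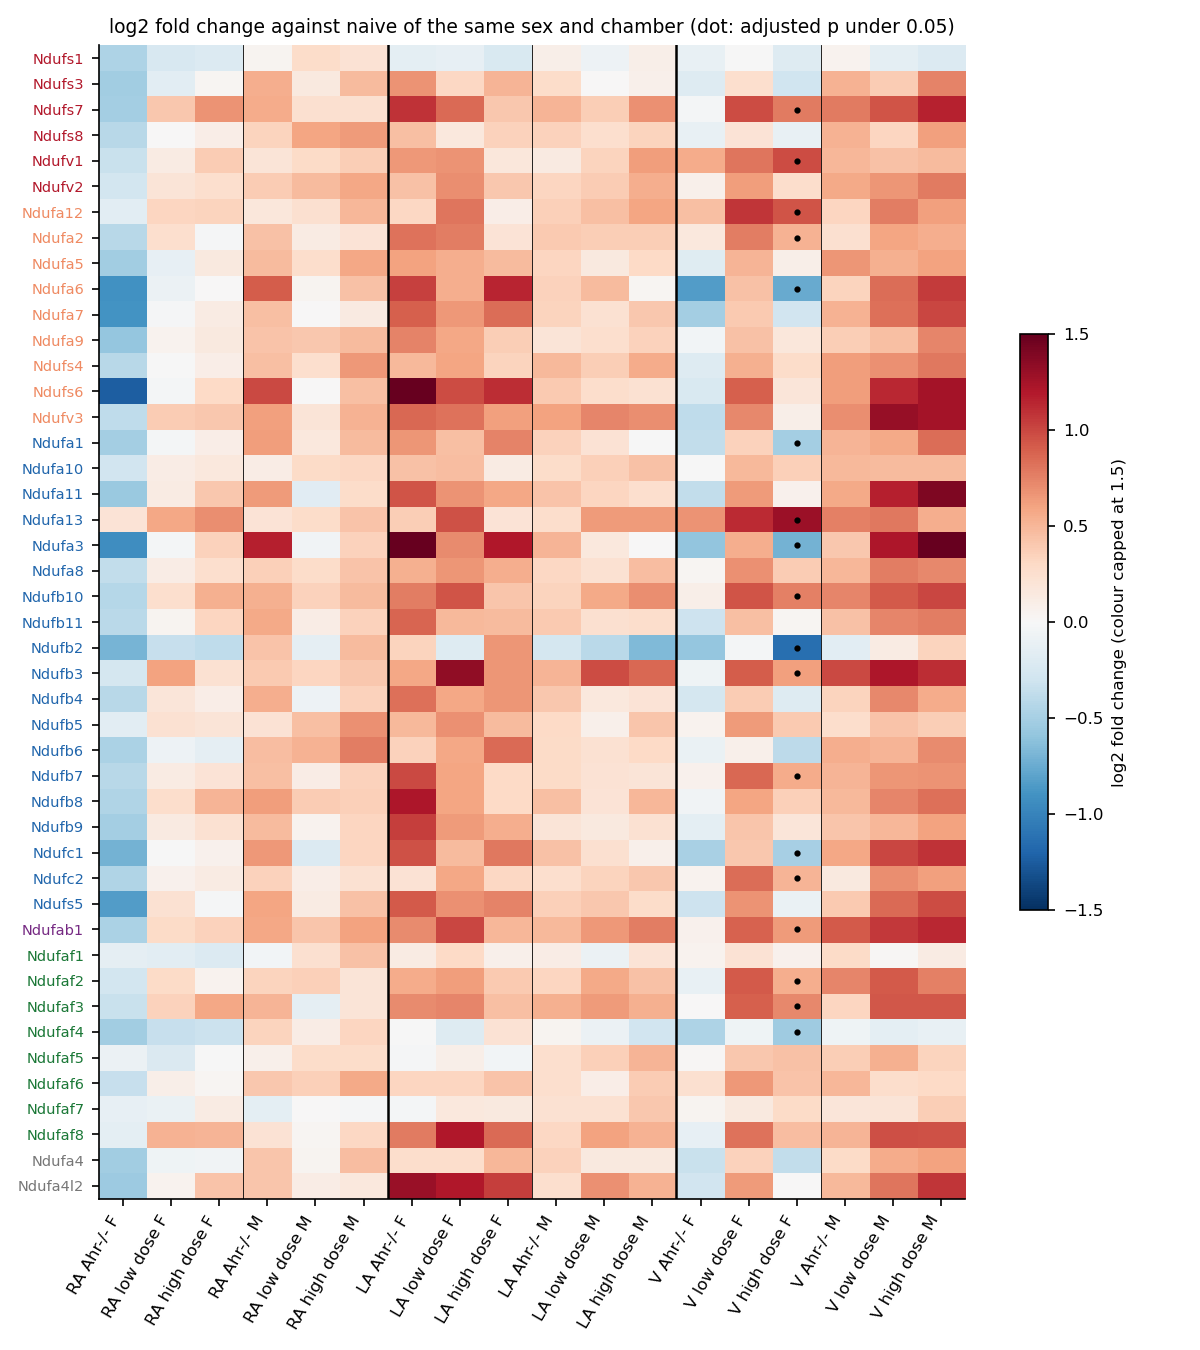
Log2 fold change of the Nduf genes shown (rows, grouped by role as core, matrix arm, membrane arm, both arms, assembly factor and not in complex I from top to bottom) against naive mice of the same sex and chamber in the 18 comparisons (columns; RA, right atrium; LA, left atrium; V, ventricle; F, female; M, male). Dots mark an adjusted p under 0.05, and all of them lie in the column of high-dose female ventricle, where higher (red) and lower (blue) values are mixed.

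In high-dose female ventricle, genes of complex I were called in both directions, and those called lower were near the share of all genes called lower. Called higher were 13 of 46 genes, against 12.2% of the 14006 genes tested, and called lower were 6, against 11.4%. The median log2 fold change was 0.22 over the 46 genes and 0.01 over all genes, and the range was -1.14 to 1.29. In CPM, 12 genes had all 3 high-dose libraries above all 3 naive libraries, against 11.7% of genes, and 10 had them all below, against 25.1%. At an adjusted p under 0.0001, the threshold of the study, edgeR called 0 of the 46 genes, and DESeq2 called 6, all higher (Ndufv1, Ndufa12, Ndufa13, Ndufb10, Ndufab1 and Ndufs7). Summed over the 46 genes the groups overlapped, at 13131, 13644 and 13750 CPM in naive and 12196, 13897 and 15064 CPM in high-dose females.

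Among the core subunits, Ndufv1 and Ndufs7 rose, Ndufs7 only as counted and not with the GC trend removed (0.40, adjusted p 0.082). Ndufv1, which holds the flavin and the NADH site, had 371, 404 and 371 CPM in the naive libraries (numbers 35, 36 and 54) and 727, 619.6 and 639.8 CPM in the high-dose libraries (numbers 43, 44 and 66), a log2 fold change of 0.97 (SE 0.13, adjusted p 0.00079). The groups lay far apart. Ndufs7, which carries the last iron-sulphur cluster before ubiquinone, had 166, 179 and 194 CPM in naive and 296, 244 and 279 CPM in high-dose libraries (0.78, SE 0.16, adjusted p 0.0044). Here too the groups did not overlap. Several core subunits did not pass: Ndufv2, an iron-sulphur protein beside Ndufv1, was at 0.27 (SE 0.14), Ndufs8, which carries a pair of clusters, at -0.11 (SE 0.12), Ndufs1 at -0.19 (SE 0.14) and Ndufs3, a core subunit without a cluster, at -0.30 (SE 0.12).

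The accessory subunits of the matrix arm had 2 called higher, Ndufa12 and Ndufa2, and 1 called lower, Ndufa6. Ndufa12, which takes the place of the assembly factor Ndufaf2 late in assembly, had 233, 224 and 218 CPM in naive and 327, 469.6 and 354 CPM in high-dose libraries (0.94, SE 0.14, adjusted p 0.0011). Ndufa6, a LYR-motif protein that binds the acyl carrier protein Ndufab1, had 82.5, 98.6 and 64.3 CPM in naive and 40.1, 52.8 and 36.1 CPM in high-dose libraries (-0.75, SE 0.15, adjusted p 0.0041). Both were separated between the groups, in opposite directions. Ndufab1 itself rose from 385, 429 and 396 CPM to 581, 554 and 532 CPM (0.64, SE 0.13, adjusted p 0.0044), so that a binding protein fell while its partner rose.

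In the membrane arm 5 of 19 accessory subunits were called higher and 4 lower. Ndufa13, also known as GRIM-19, showed the largest rise of the list, from 203, 186 and 208 CPM to 313, 411 and 536 CPM (1.29, SE 0.24, adjusted p 0.0058). Ndufb10 rose from 356, 386 and 308 CPM to 541, 511 and 502 CPM (0.75, SE 0.13, adjusted p 0.0018). The remaining higher calls were Ndufb3 (0.61), Ndufb7 (0.56) and Ndufc2 (0.51). The largest fall was that of Ndufb2, with 392, 322 and 399 CPM in naive and 105, 248 and 106 CPM in high-dose libraries (-1.14, SE 0.30, adjusted p 0.032). Its groups did not overlap, and high-dose library 44 stood above the other two. Ndufa3 fell from 104, 112 and 102 CPM to 48.1, 70.0 and 53.3 CPM (-0.71, SE 0.15, adjusted p 0.0050), and Ndufc1 from 191, 192 and 211 CPM to 127, 137 and 109.7 CPM (-0.50, SE 0.13, adjusted p 0.014). Each of these fell in all 3 libraries below the naive range. Ndufa1, encoded on the X chromosome, went from 155, 135 and 177 CPM to 84.2, 115 and 92.8 CPM (-0.51, SE 0.17, adjusted p 0.041).

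**Figure D3:**
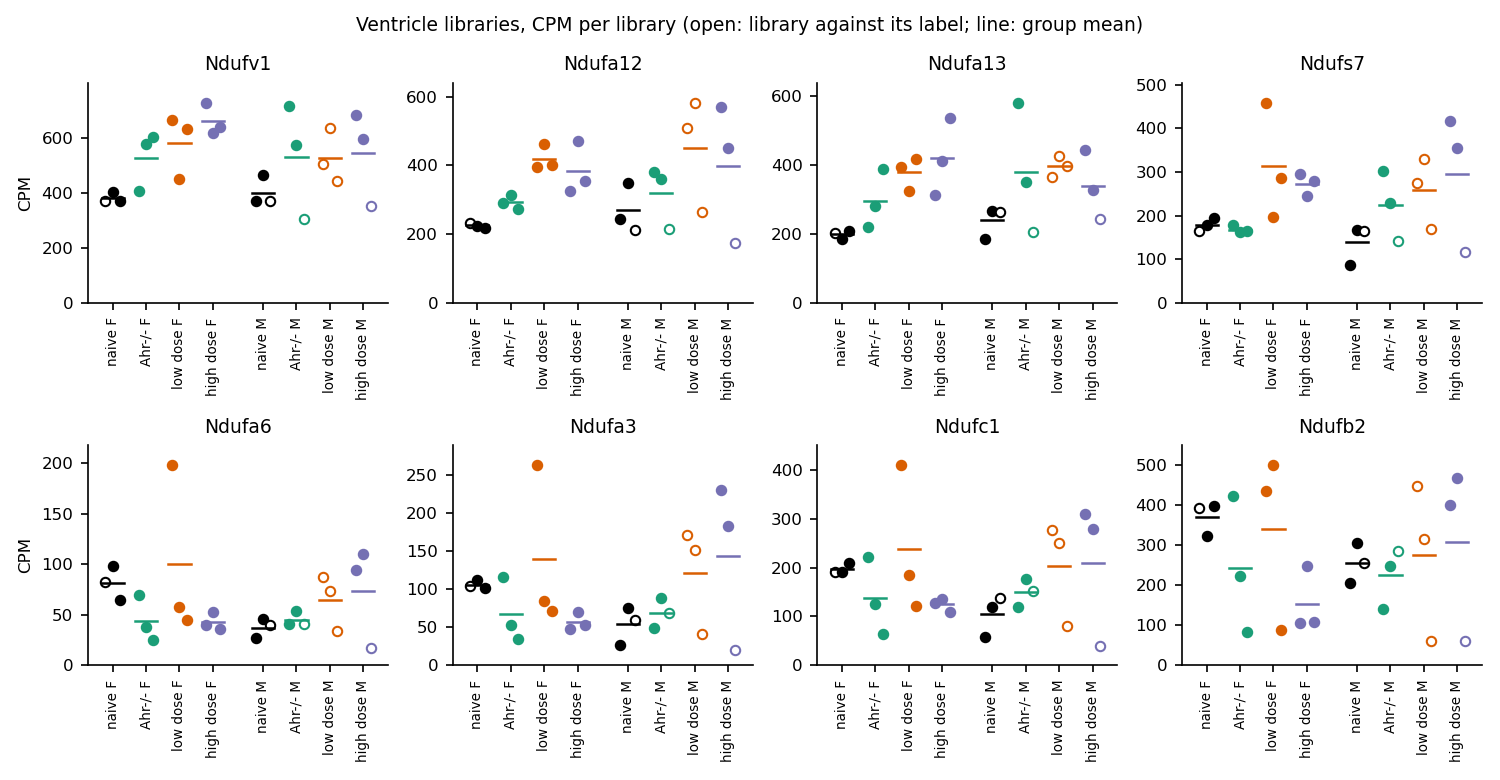
CPM (y axis) of 8 genes in every ventricle library by group and sex (x axis), with the group mean as a line and open symbols for libraries whose markers go against the label. In females Ndufv1, Ndufa12, Ndufa13 and Ndufs7 lie higher in high-dose than in naive libraries, and Ndufa6, Ndufa3, Ndufc1 and Ndufb2 lie lower, while high-dose male libraries 41 and 42 lie above all 3 naive male libraries in each of the 8 panels.

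Of the 8 assembly factors, Ndufaf3 and Ndufaf2 were called higher and Ndufaf4 lower. Ndufaf3 and Ndufaf4 act as a pair on the quinone-binding part of the matrix arm. Ndufaf3 had 11.7, 11.7 and 9.53 CPM in naive and 16.5, 16.4 and 14.9 CPM in high-dose libraries (0.72, SE 0.16, adjusted p 0.0083), and Ndufaf4 had 82.6, 75.3 and 76.4 against 47.1, 64.1 and 35.0 CPM (-0.53, SE 0.15, adjusted p 0.023). The partners differed in sign as counted, with no overlap between groups for either, but neither was called with the GC trend removed (Ndufaf3 0.45, adjusted p 0.076, and Ndufaf4 -0.03, adjusted p 0.90). Ndufaf2 was called at 0.55 (SE 0.15, adjusted p 0.021). Ndufaf1, part of the complex that builds the membrane arm, was at 0.07 (SE 0.14). Outside complex I, Ndufa4 was at -0.36 (SE 0.19, adjusted p 0.19) and Ndufa4l2, a paralogue known from hypoxia, at 0.01 (SE 0.21).

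Of 14 assembly factors without the Nduf name, 3 were called higher and 2 lower, against 12.2% and 11.4% of all genes tested. The same shares of all genes apply to the other lists of this paragraph. Aifm1, an import partner of Chchd4, was at 1.03, Timmdc1 at 0.65 and the membrane insertase Oxa1l at 0.53, while Tmem126b and Tmem126a were at -1.17 and -0.69. Among 12 regulators of mitochondrial genes, the coactivator Pprc1 (0.53) and the nuclear receptor Esrra (0.42) were called higher, and the corepressor Nrip1 (-0.99), the mitochondrial transcription factor Tfb2m (-0.67) and Yy1 (-0.41) lower. For complexes II to V, 9 of 45 genes tested were called in each direction, with a median of -0.12. Complex I genes had a median of 0.22, and the difference between these lists was not tested.

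Several measures moved with these changes. A list of 6 cardiomyocyte genes summed to between 61347 and 81214 CPM in the high-dose libraries and between 40181 and 43258 CPM in the naive ones, with 5 genes called higher and 1 lower. Fibroblast genes summed to 1114 to 1259 CPM against 1288 to 1884.5 CPM, with 1 called higher and 2 lower. The skeletal muscle list summed to 1423 to 1868 CPM against 1280.1 to 1396 CPM, with 1 of 4 genes tested called higher and 2 lower, and the endothelial list to 785 to 944 CPM against 759.9 to 893 CPM, with 1 called higher and 2 lower. The T-cell list, at 1.68 to 5.58 against 1.2 to 2.26 CPM, overlapped between groups and had 0 genes called. Of all genes tested, 12.2% were called higher and 11.4% lower. Myl2 went opposite to the cardiomyocyte list, at 3895 to 4236 CPM in high-dose against 4449 to 5376 CPM in naive libraries. The blood list overlapped, at 5685 to 6637 against 4481 to 8293 CPM. Their part in the result was not tested.

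Fold changes in this comparison followed the GC content of the transcript. Over 13877 genes the Spearman rho between them was 0.52, and in the fifth of genes with the lowest GC content the median was -0.40, against 0.36 in the fifth with the highest. Among the 46 genes rho was 0.32, and median GC content was 53.7% in the 13 called higher, 45.8% in the 6 called lower and 52.1% in the others. With the trend removed in each library, 12 genes were called higher, against 7.56% of all genes, and 5 lower, against 5.2%. Of the original calls 8 of 13 higher and 2 of 6 lower remained. Ndufv1 (0.68), Ndufa12 (0.86), Ndufa13 (0.90), Ndufb10 (0.50), Ndufab1 (0.86), Ndufb3 (0.86), Ndufc2 (0.57) and Ndufaf2 (0.68) stayed higher, and Ndufa6 (-0.93) and Ndufa3 (-0.78) stayed lower. Ndufaf4, the gene with the lowest GC content of the 46 (39.5%), went from -0.53 to -0.03, and Ndufc1 from -0.50 to -0.23, and Ndufb2 went from -1.14 to -0.87 and lost its call (adjusted p 0.066). Ndufs7 went from 0.78 to 0.40 (adjusted p 0.082) and Ndufaf3 from 0.72 to 0.45 (adjusted p 0.076), and neither passed. Ndufs3 (-0.49), Ndufs8 (-0.43) and Ndufa7 (-0.53) were now called lower, and Ndufv2 (0.66), Ndufs4 (0.61), Ndufb5 (0.50) and Ndufaf5 (0.58) higher.

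**Figure D4:**
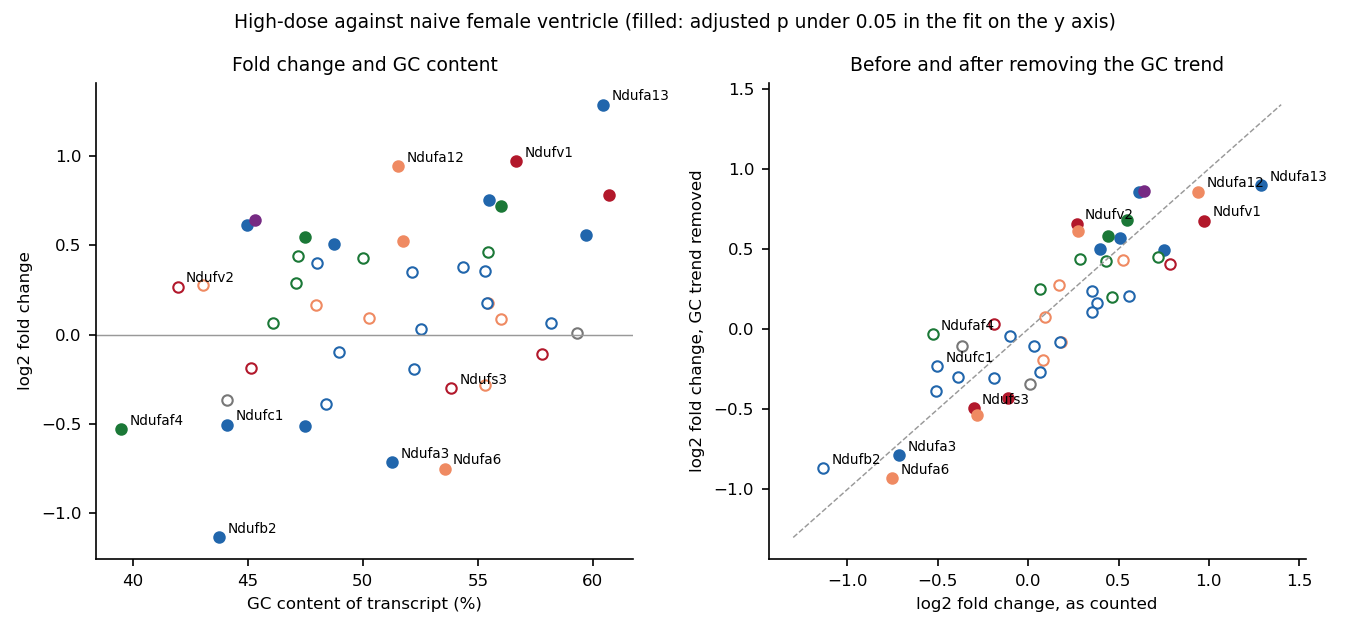
Left, log2 fold change in high-dose against naive female ventricle (y axis) of the Nduf genes shown against the GC content of its transcript in percent (x axis). Right, log2 fold change with the GC trend removed (y axis) against the value as counted (x axis), with a dashed line of equality, colours by role and filled symbols for an adjusted p under 0.05 in the fit on the y axis. Ndufa13 and Ndufv1 fall below the line, Ndufaf4 rises to -0.03, and Ndufa6 and Ndufa3 stay near it.

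The calls also depended on which libraries shared the estimate of spread. Fitted with the low-dose and Ahr-/- libraries of female ventricle, 4 genes were called higher and 0 lower. Of all 14502 genes, 719 were called in that fit, 455 of them higher. Without naive library 35, whose Myl4 level was 193 CPM against 3.14 and 4.23 CPM in the other naive ones, 7 were called higher and 3 lower. Of all 14256 genes, 1553 were called there, 789 of them higher. In the joint fit without that library 0 were called, as were 0% of all genes. In that last fit the median was 0.15. Leaving out naive library 36 gave 8 higher and 6 lower, leaving out naive library 54 gave 17 and 2, and leaving out high-dose library 43 gave 13 and 3. Over all genes, 1853 of 14318, 2760 of 14287 and 2297 of 14247 were called in these fits, with 944, 1516 and 1202 higher.

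In the other 17 comparisons the values were mostly positive. Between 40 and 45 of the 46 genes were above 0 in 13 of them, with medians of 0.21 to 0.73. With the trend of transcript length removed, each of these 13 medians was lower, at 0.09 to 0.38. In high-dose male ventricle the median went from 0.73 to 0.30, and in high-dose female left atrium from 0.46 to 0.11. The cause was not tested. Single libraries also decided several of the medians as counted. Without naive library 1, the lowest of all 72, the medians in male right atrium were 0.15 (Ahr-/-), 0.04 (high dose) and -0.06 (low dose), with 35, 28 and 19 genes above 0. Without library 69 the median in low-dose male left atrium was -0.06, with 14 genes above 0, and without library 28 that in high-dose female left atrium was 0.10, with 31. In male left atrium the medians for Ahr-/-, high dose and low dose were 0.12, 0.16 and 0.08 without naive library 17 and 0.69, 0.73 and 0.66 without naive library 51. Called by edgeR were 0 genes in each, as were 0% of all genes, except in Ahr-/- female ventricle (0.0216%). The count of genes with an unadjusted p under 0.05 in the direction of higher was 25 in low-dose female ventricle, against 9.9% of all genes, 20 in low-dose female left atrium, against 8.69%, 17 in Ahr-/- female left atrium, against 7.12%, and 14 in low-dose male ventricle, against 5.83%. In the remaining comparisons it was 0 to 3. The shares of all genes there were 3.57%, 2.21% and 2.1% (Ahr-/-, high and low dose) in female right atrium, 2.51%, 2.36% and 2.5% in male right atrium, 4.58% in high-dose female left atrium, 1.24%, 4.75% and 0.701% in male left atrium, 6.12% in Ahr-/- female ventricle, and 1.53% and 2.93% in Ahr-/- and high-dose male ventricle. DESeq2 called 13 genes higher in low-dose female ventricle (2.58% of all genes), 8 in low-dose female left atrium (2.25%), 4 in low-dose male ventricle (0.976%) and 0 in the other 14. Low-dose male ventricle has no library that matches its label. Without libraries against their label, medians in female right atrium went from 0.15 to 0.18 (high dose) and 0.10 to 0.52 (low dose). These rest on 1 high-dose library against 1 naive library, and on 2 low-dose libraries against the same naive library. In male left atrium they went from 0.33 to 0.57 (Ahr-/-) and 0.39 to 0.64 (high dose), and stayed at 0.26 (low dose). In ventricle they went from 0.58 to 0.52 (low-dose females), -0.10 to -0.13 (Ahr-/- females) and 0.49 to 0.63 (Ahr-/- males).

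Low-dose female ventricle had a median of 0.58, and 43 of 46 genes were above 0. Without library 47 the median was 0.30, and 33 were above 0. Library 47 had Myl4 at 93.3 CPM, under the cut of 100 CPM, against 2.16 and 4.77 CPM in libraries 48 and 72. Ndufa12 had 396, 461 and 401 CPM in the low-dose libraries (numbers 47, 48 and 72), against 233, 224 and 218 CPM in naive (1.07, SE 0.18, adjusted p 0.125). Ndufa13 had 396, 324 and 418 CPM, against 203, 186 and 208 CPM (1.12, SE 0.22, adjusted p 0.14). Both were also called in the high-dose comparison, which shares its naive libraries. Summed over the 46 genes the 3 low-dose libraries ranged widely, at 23284, 15979 and 12733 CPM, and the gene without a symbol that took the largest share of reads held 13.4% of library 72. Without library 48, edgeR called 9 genes, and without library 47, 1. The share of all genes called in these fits was not computed.

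The 2 doses were compared directly in female ventricle. High dose had lower values than low dose for 41 of 46 genes, with a median of -0.33, and 0 were called by edgeR (0% of all genes) or DESeq2. Unadjusted, 9 had a p under 0.05 in the direction of lower, against 2.7% of all genes, among them Ndufa3 at -1.28 (SE 0.44) and Ndufc1 at -0.93 (SE 0.34). For Ndufa3 the low-dose libraries held 263, 83.8 and 71.2 CPM and the high-dose libraries 48.1, 70.0 and 53.3 CPM. The highest value of either gene was that of library 47.

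**Figure D5:**
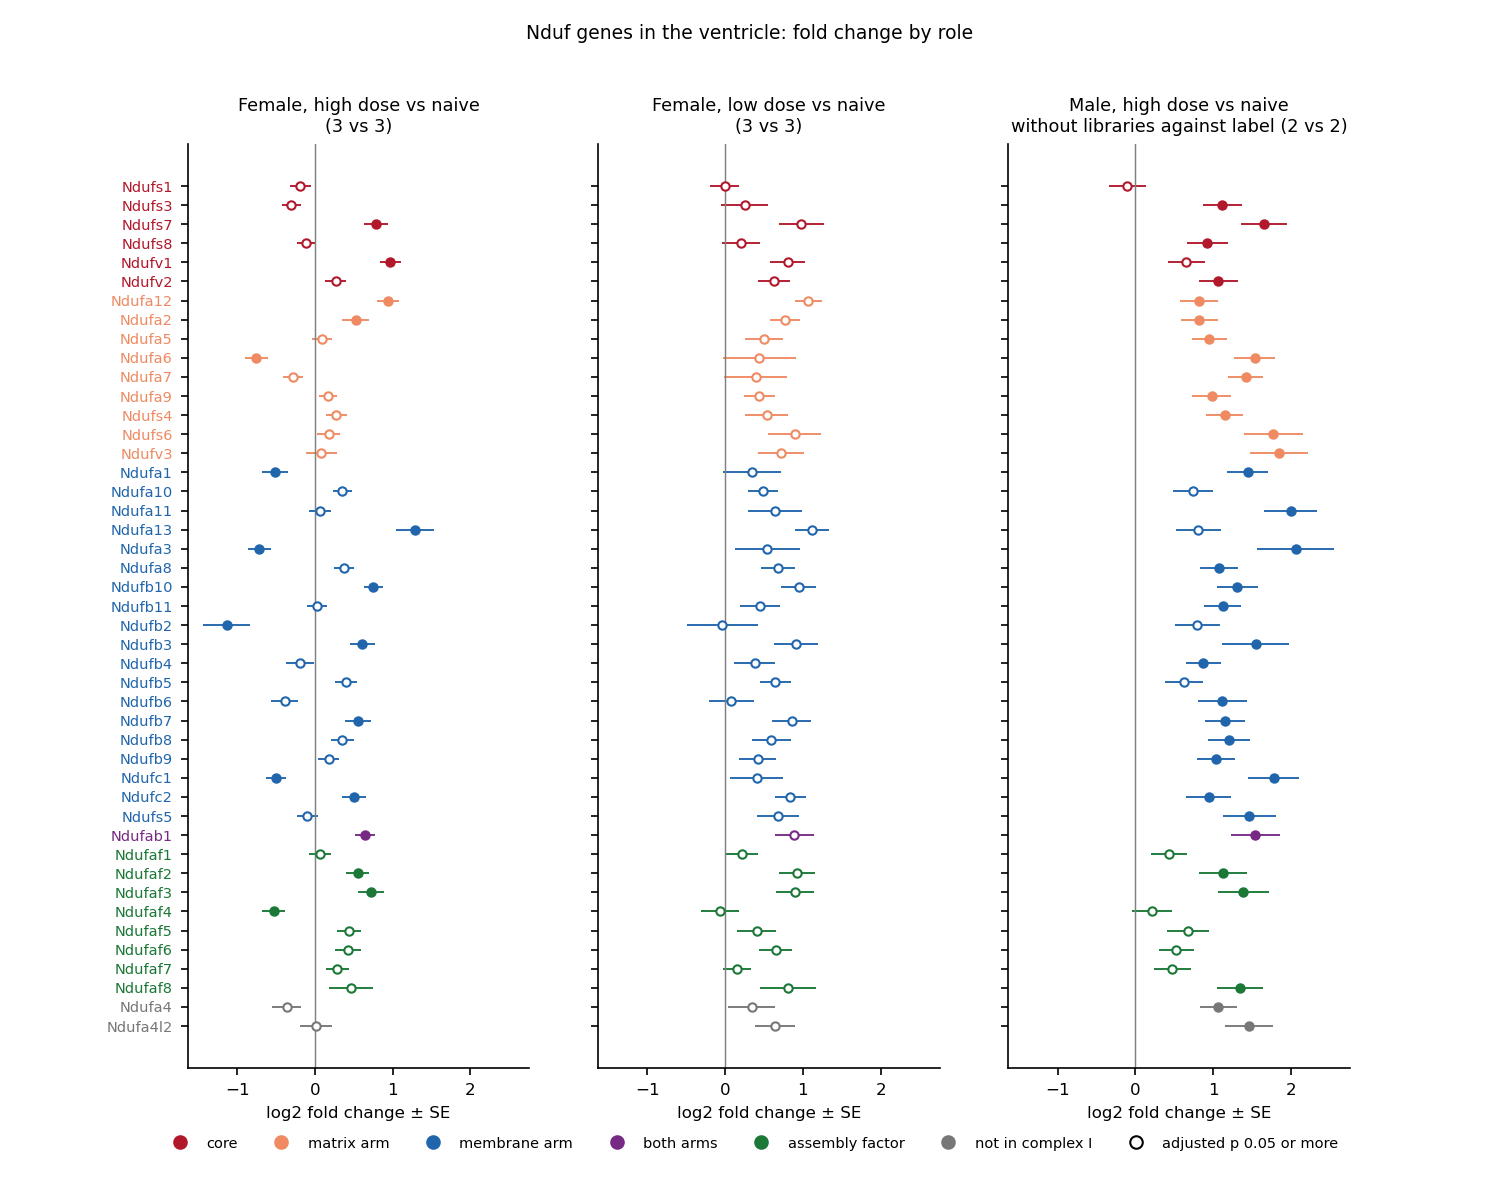
Log2 fold change against naive ventricle (x axis, bars are SE) of the Nduf genes shown (y axis), ordered and coloured by role, for high-dose and low-dose females and for high-dose males without the libraries whose markers go against the label. Filled symbols mark an adjusted p under 0.05: genes on both sides of 0 in high-dose females, 0 genes in low-dose females and 34 genes in high-dose males, all on the higher side.

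In male ventricle the outcome turned on the libraries that go against their labels. With all libraries, the 3 naive males summed to 8791, 12958 and 10294 CPM (numbers 33, 34 and 53) and the 3 high-dose males to 20731, 19963 and 6577 CPM (numbers 41, 42 and 65). The median log2 fold change was 0.73 and 0 genes were called. Libraries 53 and 65 had Myl4 at 1378 and 1469 CPM and sex-linked transcripts that did not match the label. Without them and library 59 of the Ahr-/- group, the median was 1.1, 45 of 46 genes were above 0, and 34 were called higher, against 9.05% of all genes (edgeR, 2 libraries against 2, with the 2 Ahr-/- libraries sharing the estimate of spread). The 34 were 4 core subunits, all 9 accessory subunits of the matrix arm, 15 of 19 in the membrane arm, Ndufab1, 3 assembly factors, Ndufa4 and Ndufa4l2. Leaving out library 65 alone, or library 53 alone, gave 0 calls.

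Ndufa3 showed the largest difference in this reduced comparison, with 27.0 and 74.8 CPM in naive and 230.1 and 183 CPM in high-dose males (2.07, SE 0.50, adjusted p 0.029). Ndufs7 had 86.8 and 166 CPM against 417 and 355 CPM (1.65, SE 0.30, adjusted p 0.0053). Ndufa6 had 26.5 and 45.5 CPM against 94.1 and 110.1 CPM (1.54, SE 0.27, adjusted p 0.0046). The groups did not overlap for any of these, and naive library 33 lay below naive library 34 for each. Blood genes summed to 3649 and 4835 CPM in naive and 16608 and 10126 CPM in high-dose males, and Myl2 to 2734 and 3927 CPM against 7272 and 7220 CPM, and their part in the result was not tested. In Ahr-/- males without library 59, Ndufs7 (1.15), Ndufab1 (1.22) and Ndufa13 (1.12) were called higher, against 1.33% of all genes.

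The difference between the sexes in the response to high dose was tested as an interaction in ventricle, with negative values where the change in females was lower than in males. With all 12 libraries 0 genes were called by edgeR (0% of all genes) or DESeq2, 40 of 46 were negative with a median of -0.51, and 2 had an unadjusted p under 0.05 in the direction of lower, against 2.38% of all genes: Ndufa6 at -1.83 (SE 0.73) and Ndufa3 at -2.25 (SE 0.94). Without libraries 35, 53 and 65, 17 genes were called lower in females relative to males, against 2.68% of all genes, with a median of -0.95 and 43 of 46 genes negative. Among them were Ndufa6 (-2.36, SE 0.32, adjusted p 0.0016), Ndufc1 (-2.39, SE 0.35, adjusted p 0.0021), Ndufa7 (-1.74, SE 0.27, adjusted p 0.0031), the core subunit Ndufs3 (-1.51, SE 0.27, adjusted p 0.0072), Ndufa1 (-2.05) and Ndufa3 (-2.88). Of the 6 genes called lower in high-dose females, 4 were called higher in high-dose males in the reduced fit, namely Ndufa1, Ndufa3, Ndufa6 and Ndufc1. With only library 65 left out, the interaction called 15 genes. The share of all genes called in that fit was not computed.

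With all libraries, edgeR called 0 genes in Ahr-/- mice in each chamber and sex. Leaving out 1 library gave calls in 2 of these comparisons. Without Ahr-/- library 39, 2 genes were called higher and 5 lower in female ventricle. Without Ahr-/- library 58, 2 were called higher in female left atrium. The share of all genes called in these fits was not computed, so the counts are not read as a result about complex I. In female right atrium 45 of 46 genes were below 0 with a median of -0.42, and 1, Ndufa7 (-0.90, SE 0.37), had an unadjusted p under 0.05 in the direction of lower, against 1.94% of all genes. The naive group there includes library 4, which has 10.3 CPM of Myl4 and the highest sum of that group at 16380 CPM, against 9204 and 10930 CPM. Without the libraries that go against their labels, 1 naive and 2 Ahr-/- libraries remained, and the median turned to 0.11. In female left atrium the median of 0.65 became -0.02 without libraries 23 and 24, both Ahr-/- and both with Myl4 under 100 CPM, which left 1 Ahr-/- library. In Ahr-/- female ventricle, where all 3 libraries matched their label, 29 of 46 genes were below 0 (median -0.10). Ndufa6 was at -0.84 (SE 0.29), the 1 gene with an unadjusted p under 0.05 in the direction of lower, against 3.33% of all genes, while Ndufa12 (0.45, SE 0.14) and Ndufa13 (0.67, SE 0.24) were above 0. The signs of Ndufa6, Ndufa12 and Ndufa13 were those of high-dose females, a comparison that uses the same naive libraries. Male atria of Ahr-/- mice had medians of 0.44 on the right, which became 0.15 without naive library 1, and 0.33 on the left, which ranged from 0.12 without naive library 17 to 0.69 without naive library 51.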

How the data were processed

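Members and gene lists were chosen with earlier results of these data known. The authors made poly-A libraries, aligned reads to mm10 with TopHat, counted reads on coding regions per gene and tested with DESeq; the deposited table holds raw counts per gene for 72 libraries. Annotation and strand handling were not given in the sources used here. Entrez identifiers were matched to RefSeq symbols. From the counts, CPM was computed on library totals (11873417 to 28789382 counts), and genes kept by filterByExpr (minimum count 10, minimum total 15) were tested with edgeR 4.0.16 (TMM, robust quasi-likelihood, Benjamini-Hochberg, adjusted p under 0.05) in R 4.3.3, 3 libraries against 3, or in 1 fit of 24 groups for chambers. SE is that of the log2 fold change. Interactions used 12 ventricle libraries. A library was set against its label by Myl4 at 100 CPM or by Xist against Y-linked counts. Genes named by rule were the core subunits, up to 8 called genes of smallest p in each direction (8 higher, 6 lower), Ndufa4, Ndufa4l2 and Ndufaf1, and the 5 largest called differences between chambers. Others were named after their values were seen. Alternatives were RLE scaling, library size only, no filter, DESeq2 1.42.0, joint fits, GC and length trends removed (spline with 5 degrees of freedom), a threshold of 0.0001, and libraries left out. Scripts were tested on simulated data. The labels do not say which libraries share a heart, so p-values treat them as separate samples. The values of 1 gene are included in the counts and sums but are not reported here.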

Additional observations from a re-analysis of the deposited data

How the results depend on the processing

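In high-dose female ventricle the 13 higher and 6 lower calls became 5 and 7 with library size only, 4 and 0 with all 4 groups in 1 fit, 0 and 0 without libraries against their label, and 0 and 0 at an adjusted p under 0.0001 by edgeR. DESeq2 called 16 and 6, of which 6 higher passed 0.0001. Of all 14006 genes, 609 were called higher with library size only and 1815 by DESeq2. Leaving out 1 library gave 7 to 17 higher and 2 to 9 lower, and the median fell from 0.22 to 0.049 with library size only. Over the other 17 comparisons, where edgeR called 0 genes, 2 were called without the filter, 25 by DESeq2, 1 with all 4 groups in 1 fit and 37 without libraries against their label, and leaving out 1 library gave 0 to 9. For ventricle against atria, 14 were called with library size only, against 848 of all 16688 genes called higher, and 0 in naive libraries. Called without libraries against their label were 44, and 0 to 40 with a library of every group left out. The sex by dose interaction called 17 without libraries against their label and 0 to 15 with 1 library left out. No share of all genes was computed for the 17 comparisons without the filter, with 4 groups or with 1 library left out. The same holds for the interaction with 1 library left out. Some genes that were not called changed sign: Ndufs1 was at 0.033 with the GC trend removed, Ndufa4l2 at -0.18 with library size only, -0.0012 without the filter, -0.062 without libraries against their label, -0.086 and -0.34 with the length and GC trends removed, and -0.13 to 0.13 with 1 library left out, and Ndufaf1 at -0.095, -0.044 and -0.047 with library size only, without libraries against their label and with the length trend removed, and -0.042 to 0.19 with 1 library left out. The cause was not tested. No paired analysis was possible because the labels do not tie libraries of different groups to each other. With 3 libraries a group, 1 library can decide a call.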
